A study of Mus musculus with 18 samples.

Results

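Peripheral areas of the mouse thyroid lobe were compared between glands that had undergone partial thyroidectomy and normal glands. Of the 18 arrays of the series, 8 were titled as peripheral cells, 5 of them dissected and 3 normal, and these titles alone chose the arrays. Every tissue sample came from a male C57BL/6 mouse, no age was given, and the labels describe the normal areas as taken without partial thyroidectomy. No further allele or agent is named in either group. Each area was collected from a frozen section by laser capture microdissection, its RNA was amplified, labelled with Cy5 and hybridised to an Agilent array together with a Cy3-labelled RNA shared by all arrays. The labels do not state how long after surgery the dissected glands were taken, nor the mouse behind each capture, and 1 mouse may have given several of them. The p-values, which measure the spread between captures, may then be too small. The series title places the study in the context of thyroid cell proliferation after the operation.

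The thyroid lobe is built of follicles, in which follicular cells (thyrocytes) make thyroglobulin, iodinate it, take it back up and release thyroid hormone after digesting it in lysosomes. Thyrocytes export large amounts of protein and depend on the chaperones of the endoplasmic reticulum to fold thyroglobulin. C cells, the second endocrine cell type, secrete calcitonin and lie mainly in the middle of the lobe in mice. Loss of thyroid tissue lowers circulating hormone, and the pituitary then releases thyrotropin, a stimulus of thyrocyte growth.

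Values are log2 ratios of Cy5 over Cy3 after normalization within each array, and a difference is the mean of the dissected minus the mean of the normal arrays. Tests of genes are limma's, fitted to 14664 genes on all 18 arrays, with Benjamini-Hochberg adjustment over these genes. No gene of the peripheral comparison reached an adjusted p under 0.05 (0 called, 0%), and the smallest adjusted p was 0.306. At an unadjusted p under 0.05 there were 1224 genes (8.35%), of which 650 (4.43%) were higher and 574 (3.91%) lower in dissected areas. The 5 dissected arrays lay entirely above the 3 normal arrays for 316 genes (2.15%) and entirely below them for 286 (1.95%). Centring each array on its median in place of loess gave 975 above (6.65%) and 57 below (0.389%). The shares of 2.15% and 1.95% are the background against which the gene lists below are read. Arrays labelled at random would separate a gene in a given direction with probability 0.0179, close to both of these shares. The median difference over all genes was 0.01, and the 95% interval of a typical gene reached 0.47 to either side of its difference, before any adjustment for the number of genes. After adjustment even larger differences were not called.

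Normal array 1 stood apart from the other peripheral arrays. It had 24.7% of gene probes well above background in Cy5, where the other 7 had 28.7% to 43.97%. Its ratios correlated with those of the others at -0.02 to 0.13 across 14543 genes, while the others correlated among themselves at 0.09 to 0.43. As 1 of only 3 normal arrays it carried weight in every mean, and values without it are given beside the results. The share of probes above background did not separate the groups, with 36.8% ± 5.57 (SD, n = 5) for dissected and 33.2% ± 7.32 (SD, n = 3) for normal areas (exact permutation test, two-sided, p = 0.446, smallest p the design allows 0.0179).

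The Cy3 channel went against its label. Its source is described as RNA mixed from several mouse organs and embryo, among which thyroid is not listed, yet Tg, the thyroglobulin gene, gave Cy3 intensities of 21185 to 161222 on the peripheral arrays. Calca, the calcitonin gene, gave 259124 to 494049. By contrast, of 24 genes typical of the listed tissues (chosen after the intensities had been seen), 11 were above background in Cy3 on none of the 8 arrays and 4 on all 8. Among the 11 were Apoa2 of liver, at a median Cy3 intensity of 104, and Umod of kidney, at 102, against a median of 109.5 to 126.2 over all gene probes of an array. Among the 4 were Mbp of brain, the brightest of the 24 at a median of 2492, Nppa of heart and Amh of ovary. Amh was brighter in Cy3 (576 to 765) than in Cy5 (87.2 to 191.9) on these arrays. Over 19082 probes the log2 intensities of Cy5 and Cy3 correlated at 0.970 to 0.980 within 7 arrays and at 0.886 on normal array 1, and the Cy3 channels of different arrays at 0.964 to 0.998. A ratio below therefore compares the captured area with an RNA rich in thyroid and C cell transcripts, and a ratio near 0 does not mean that a gene was weak. Whether that RNA was the labelled one was not tested.

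Markers of the thyrocyte were checked first. Tg and Nkx2-1, a thyroid transcription factor, were above background in Cy5 on all 8 arrays. Slc5a5, the iodide transporter, and Foxe1, another thyroid transcription factor, were above background on none, and Tshr, the thyrotropin receptor, was above it on 3 dissected and no normal array. Tg gave log2 ratios of 2.23, 1.45 and 0.86 on the normal and 1.20, 1.34, 1.82, 1.02 and 3.01 on the dissected arrays, which overlapped over most of their range (difference 0.17 ± 0.36 SE, adjusted p = 0.935).

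The genes of C cells were the list furthest below all genes that had more than 4 measured members. Of 23 measured genes 20 had a difference below 0, the median was -0.48 against 0.01 over all genes, and 5 of 23 (21.7%, against 1.95% of all genes) had every dissected array below every normal one. None of the 23 passed the test. The 5 genes were also the 5 markers used here for C cells: Calca, the granins Chga and Chgb, which condense hormones in secretory granules, the granin-like Scg3, and Pcsk2, a protease that cleaves prohormones. Lists and rules were chosen with earlier results of these data known, so this match is a description only. Calca gave log2 ratios of -0.33, -0.97 and -0.55 on the normal and -2.39, -2.05, -2.39, -1.72 and -1.20 on the dissected arrays. Chga stood at -1.62, -2.99 and -2.40 on normal and at -3.76, -3.87, -4.02, -3.38 and -3.60 on dissected arrays. For both genes every normal value lay above every dissected one.

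**Figure D1:**
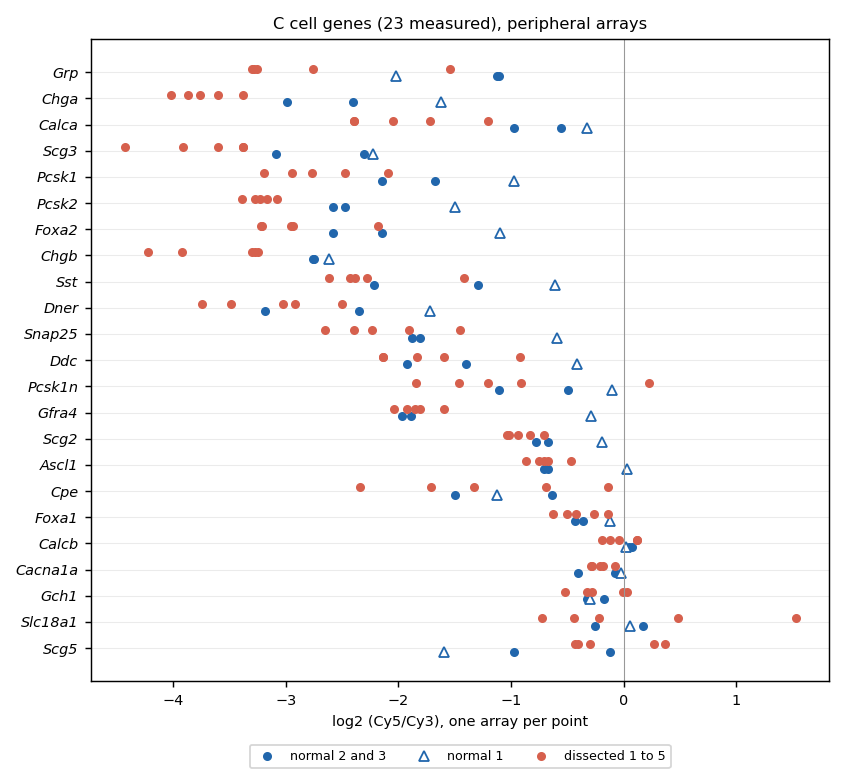
Log2 ratios of Cy5 over Cy3 for the 23 measured C cell genes, with 1 point per peripheral array, normal arrays in blue (open triangle for normal 1) and dissected arrays in red. Genes are ordered by the difference, from Grp (-1.41) to Scg5 (0.79), and Calca, Chga, Chgb, Scg3 and Pcsk2 show no overlap between the groups.

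Chgb had ratios of -2.61, -2.76 and -2.75 on normal and -4.22, -3.27, -3.92, -3.25 and -3.30 on dissected arrays. Scg3 had -2.22, -3.09 and -2.31 against -3.38, -3.60, -3.91, -4.43 and -3.38, and Pcsk2 -1.50, -2.47 and -2.58 against -3.17, -3.23, -3.39, -3.08 and -3.28. In linear terms the dissected areas had 1.85-fold (Chgb) to 2.62-fold (Chga) lower ratios for these 5 genes. The differences were -1.33 ± 0.71 (SE) for Calca, -1.39 ± 0.61 for Chga, -0.89 ± 0.53 for Chgb, -1.20 ± 0.50 for Scg3 and -1.05 ± 0.49 for Pcsk2, with adjusted p-values of 0.574 to 0.662. Grp, gastrin-releasing peptide, had a larger difference of -1.41 ± 0.81, but dissected array 1 (-1.54) lay inside the normal range of -2.02 to -1.10.

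Within the 3 slides that carried both groups, the difference ranged from -2.06 to -1.08 for Calca and from -2.14 to -0.88 for Chga. Groups that do not overlap fix the sign of these values, so they show size only. Without normal array 1 Calca was at -1.19 and Chga at -1.03, and the list median was -0.24 with 6 of 23 genes above 0. The direction depended on the scaling of the ratios. Equalising the spread of ratios between arrays turned Chgb (0.99), Scg3 (0.51) and Pcsk2 (0.21) above 0 and left Chga at -0.01, with the list median at 0.01 against 0.04 for all genes. Cy5 alone gave -0.41 for Calca, whose Cy3 intensities were 327125 to 494049 on normal and 259124 to 415403 on dissected arrays, and -1.61 for Chga.

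In the central area of the same series, where C cells lie, Calca ratios were 2.66 to 3.96 on the 5 normal and -0.57 to 3.88 on the 5 dissected arrays. The peripheral areas of both groups had lower ratios than any normal central one. In RNA from a captured area, fewer cells of a type cannot be told apart from less RNA per cell. The number of C cells in each captured area was not measured.

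Cxcl13, a chemokine that draws B cells, followed the same order, at -2.85, -3.32 and -3.26 on normal and -4.54, -4.32, -5.13, -4.12 and -4.23 on dissected arrays (difference -1.32 ± 0.49, adjusted p = 0.534). The scaling that equalises spread also turned this gene, to 0.82.

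Chaperones of the endoplasmic reticulum and genes of the unfolded protein response, the program by which a cell raises its folding capacity, lay on the other side. Of 28 measured genes 23 had a difference above 0, with a median of 0.41, and 8 (28.6%, against 2.15% of all genes) had every dissected array above every normal one, while no member was entirely below. Those 8 were Hspa5, Herpud1, Atf6, Dnajb9, Pdia6, Edem1, P4hb and Canx. No member passed the test, and 10 had an unadjusted p under 0.05, all with a positive difference. Without normal array 1, 12 of 28 did not overlap (42.9%, against 4.36% of all genes), where the 8 had to be among the 12, and the median was 0.35. The median stayed 0.27 to 0.66 above that of all genes under the 7 scalings compared. Some scalings also lifted the brightest genes. With median centring, the source of the 0.66, the list median was 0.90 and that of the brightest genes 0.72. Equalising the spread of ratios between arrays gave 0.31 and 0.27. Under the other scalings the list was at 0.36 to 0.53 and the brightest genes at 0.06 to 0.13. The part of brightness in this excess was not tested.

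Hspa5, which codes for BiP, the main chaperone of the endoplasmic reticulum, had ratios of -1.91, -0.52 and -0.19 on the normal and 0.48, 0.37, 0.86, -0.09 and 0.98 on the dissected arrays. The difference was 1.39 ± 0.37 (SE, 2.62-fold, adjusted p = 0.386), and it was 0.87 without normal array 1, the lowest of the 8. Within slides it was 2.39, 0.89 and 0.10, so its size varied widely. Herpud1, which serves in the degradation of misfolded proteins, had -1.17, -0.83 and 0.05 on normal and 0.51, 0.90, 0.48, 0.43 and 0.21 on dissected arrays, a difference of 1.16 ± 0.36.

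Edem1, a lectin that hands misfolded glycoproteins to degradation, had ratios of -0.84, -0.74 and -0.39 against 0.30, 0.32, -0.14, -0.16 and 0.00. Here normal array 1 was not far from the others, and the difference changed little without it, from 0.72 to 0.63. Both other probes of Edem1 also had positive differences, of 0.25 ± 0.16 (SE) and 0.33 ± 0.24. They were above background in Cy5 on 1 and 0 normal arrays and on 4 dissected arrays each, so they add little. Atf6, a sensor that turns on chaperone genes, differed by 0.97 ± 0.39, with -0.13, -0.54 and -0.81 on normal and 0.66, 0.49, 0.73, 0.50 and 0.02 on dissected arrays. Dnajb9, a cofactor of BiP, differed by 0.92 ± 0.27. Pdia6, a protein disulfide isomerase, differed by 0.83 ± 0.34 and by 0.26 without normal array 1, which stood at -2.01.

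**Figure D2:**
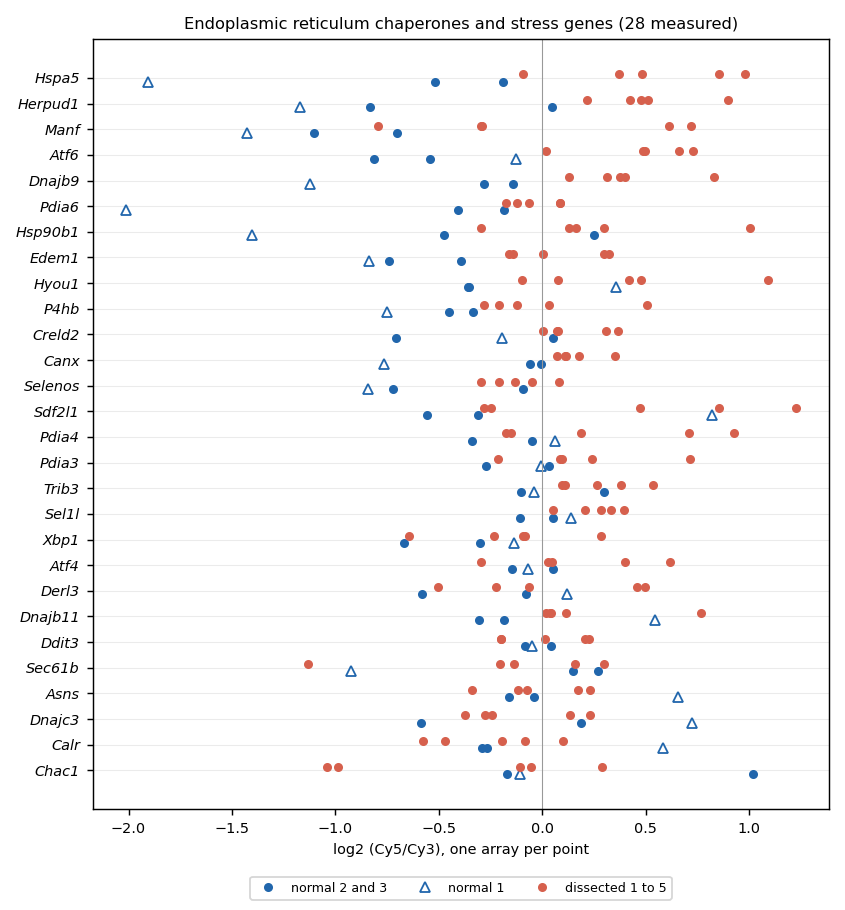
Log2 ratios of Cy5 over Cy3 for the 28 measured endoplasmic reticulum chaperone and unfolded protein response genes, with 1 point per peripheral array, normal in blue (open triangle for normal 1) and dissected in red. Genes run from Hspa5 (difference 1.39) to Chac1 (-0.63), and normal 1 is the lowest point of Hspa5, Herpud1, Dnajb9, Pdia6 and Hsp90b1 but the highest of Dnajc3, Calr and Asns.

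Members did not all lie on that side. Calr, calreticulin, had ratios of 0.58, -0.29 and -0.27 on normal and -0.47, -0.19, -0.57, -0.08 and 0.10 on dissected arrays (difference -0.25 ± 0.29, and 0.03 without normal array 1). Chac1 and Asns, targets of the amino acid arm of the stress response, had differences of -0.63 and -0.18 (-0.81 and 0.08 without normal array 1), and Ddit3, the stress factor CHOP, had 0.04. In the central area the list median was 0.10, and Hspa5 had a difference of 0.24.

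Many chaperone promoters carry the endoplasmic reticulum stress response element, which is CCAAT, then 9 bases of any kind, then CCACG, and is known to bind NF-Y together with ATF6 or XBP1. The 300-base promoters of the RefSeq table (GRCm38.p6, 250 bases before to 50 after the gene start) were searched for it on both strands. It was present in 39 of 32851 promoters (0.119%), which belonged to 37 of 27025 genes (0.137%). Of the 25 list members that had a promoter entry, 8 carried it (32%). Since the element is known from chaperone promoters, that share describes the list and is not a result of these arrays. Among the 8, Hspa5, Pdia6 and Hsp90b1 had the largest differences and Calr the lowest. Hsp90b1 overlapped between the groups, with 0.80, and 0.37 without normal array 1. The order changed without that array, where Pdia6 (0.26) lay below Creld2 (0.49), another of the 8. The 250 bases before the start of Hspa5, Hsp90b1, Pdia6 and Calr are shown, with the element in capitals (in reverse on the opposite strand).
Hspa5, chr2:34771840-34772089, plus strand: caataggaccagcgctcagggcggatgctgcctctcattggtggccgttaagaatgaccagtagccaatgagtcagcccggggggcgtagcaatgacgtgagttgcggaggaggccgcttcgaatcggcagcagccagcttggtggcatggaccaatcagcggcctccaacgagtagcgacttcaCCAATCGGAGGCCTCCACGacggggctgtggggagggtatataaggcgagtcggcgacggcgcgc
Hsp90b1, chr10:86705445-86705694, minus strand: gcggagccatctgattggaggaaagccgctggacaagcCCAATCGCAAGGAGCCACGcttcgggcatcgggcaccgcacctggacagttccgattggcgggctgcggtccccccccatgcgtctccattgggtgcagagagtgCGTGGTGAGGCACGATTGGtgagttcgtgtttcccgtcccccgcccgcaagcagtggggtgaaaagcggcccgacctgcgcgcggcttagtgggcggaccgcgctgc
Pdia6, chr12:17266339-17266588, plus strand: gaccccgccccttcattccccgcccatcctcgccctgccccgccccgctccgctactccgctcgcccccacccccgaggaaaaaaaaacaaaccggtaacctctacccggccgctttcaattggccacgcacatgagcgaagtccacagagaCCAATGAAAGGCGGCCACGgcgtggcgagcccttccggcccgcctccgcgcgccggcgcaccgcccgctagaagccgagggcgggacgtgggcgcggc
Calr, chr8:84846932-84847181, minus strand: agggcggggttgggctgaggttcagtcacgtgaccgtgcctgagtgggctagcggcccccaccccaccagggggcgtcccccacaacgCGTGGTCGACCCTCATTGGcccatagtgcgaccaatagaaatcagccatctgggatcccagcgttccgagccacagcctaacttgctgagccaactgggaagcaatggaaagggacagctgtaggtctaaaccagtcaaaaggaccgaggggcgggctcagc

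The element began 65 bases before the start in Hspa5, 98 in Pdia6, 162 in Calr, and 212 and 107 in Hsp90b1. The 8 members with it had a median difference of 0.44 (range -0.25 to 1.39) and the other 17 a median of 0.23 (range -0.63 to 1.16). Without normal array 1 the medians were 0.31 and 0.30. Of the 7 separated genes with a promoter entry, Hspa5, Pdia6 and Canx (3 of 7, 42.9%) had a match and Herpud1, Dnajb9, Edem1 and P4hb had none in this window.

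Genes of thyroglobulin uptake and proteolysis had a median of 0.38 with 10 of 12 above 0, and of 0.25 with 9 above 0 without normal array 1. Lamp1, a main protein of the lysosomal membrane, was the 1 member without overlap (8.33%), at -0.76, -0.10 and -0.25 on normal and 0.22, 0.34, 0.42, 0.04 and 0.66 on dissected arrays (difference 0.70 ± 0.17, adjusted p = 0.355). The cathepsins, proteases that digest thyroglobulin, were uneven. Ctsl differed by 1.06 but by 0.38 without normal array 1, Ctss by 0.80 and 0.66, and Ctsd by 0.65 and 0.78. Ctss is also a member of the macrophage list below. Ctsb had -0.22, which turned to 0.25 without normal array 1, and Ctsz had 0.03. Asgr1, the asialoglycoprotein receptor, was the lowest member at -0.56.

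Heat shock proteins, chaperones of the cytosol and mitochondria, had a median of 0.37 (0.23 without normal array 1), with 12 of 13 above 0 and none separated. In the list of NRF2 targets and oxidative stress, median 0.20 (0.09 without dissected array 4), Sqstm1 and Nupr1 were the 2 separated members of 21 (9.52%). Sqstm1, an autophagy receptor that also frees NRF2 from its inhibitor, had the smallest p of all genes in the comparison. Its ratios were -0.92, 0.11 and -0.13 on the normal and 0.63, 0.73, 0.49, 0.60 and 0.67 on the dissected arrays, and the 5 dissected areas lay close together, with no overlap between the groups. The difference was 0.94 ± 0.18 (1.92-fold, adjusted p = 0.306), and 0.63 without normal array 1. Nupr1, a stress-induced chromatin protein, had -0.41, -0.60 and -0.30 against 0.33, -0.12, 0.65, 0.29 and 0.52, and its difference of 0.77 was 0.79 without that array. Core NRF2 targets were closer to 0, with Nqo1 at 0.13, Gclc at 0.11 and Hmox1, without a usable spot on dissected array 4, at -0.19. Without normal array 1 Gclc was at -0.01 and Hmox1 at 0.03.

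**Figure D3:**
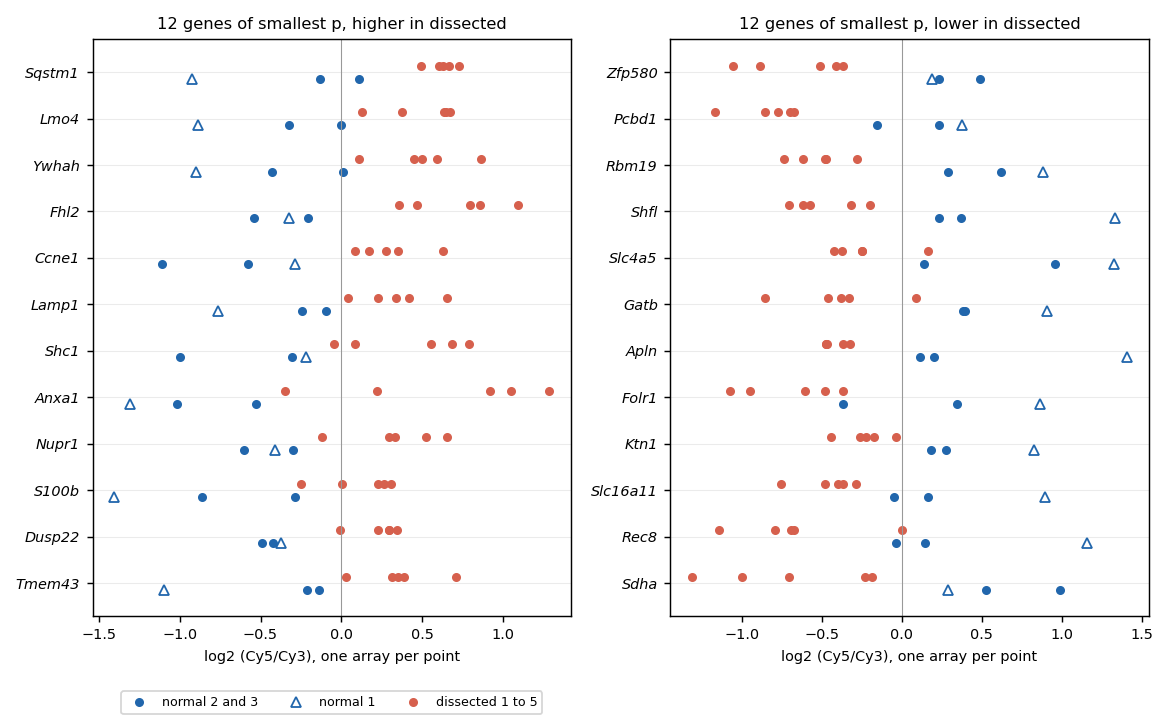
Log2 ratios of Cy5 over Cy3 for the 12 genes of smallest p with a positive difference (left) and the 12 with a negative one (right), with 1 point per peripheral array, normal in blue (open triangle for normal 1) and dissected in red. None passed the adjusted threshold (adjusted p 0.306 to 0.383), 12 of 12 on the left and 9 of 12 on the right do not overlap, and normal 1 is the most extreme normal array for 7 and 10 of them.

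The 12 genes of smallest p that were detected in at least 4 dissected or all 3 normal areas were listed in each direction. Those above were Sqstm1, Lmo4, Ywhah, Fhl2, Ccne1, Lamp1, Shc1, Anxa1, Nupr1, S100b, Dusp22 and Tmem43, with differences of 0.66 to 1.58. Since the genes were ranked by these values, their lack of overlap is a description. Without normal array 1 the differences were 0.51 to 1.40 above and -1.44 to -0.46 below.

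Anxa1, a membrane-binding protein with anti-inflammatory activity, had the largest difference of the 12 above. Its ratios were -1.31, -1.02 and -0.53 on the normal and 1.28, -0.35, 1.05, 0.92 and 0.22 on the dissected arrays, a difference of 1.58 ± 0.37 (2.98-fold, adjusted p = 0.355). Dissected arrays 2 and 5 were nearer to the normal arrays than the other 3. Fhl2, a LIM protein that acts with transcription factors, had -0.33, -0.21 and -0.54 against 0.80, 0.47, 0.86, 1.09 and 0.36, and its difference of 1.07 ± 0.24 was 1.09 without normal array 1. The central area showed -0.03 for Fhl2, but the difference between the areas, 1.099, did not pass its test.

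Ccne1, cyclin E1, which drives cells into DNA synthesis, was above background in Cy5 on all 5 dissected and on no normal array. Its ratios were 0.27, 0.63, 0.17, 0.35 and 0.09 on dissected and -0.29, -1.11 and -0.58 on normal arrays, and the fitted difference was 0.96 ± 0.21. Because the normal areas gave no measured level, the size of the change is uncertain. Mean Cy5 was 1.90-fold higher in dissected areas when each normal array was taken at the dimmest signal that counted as well above background. That figure carries no error and is not a lower limit, since a probe not counted can be brighter than the dimmest one counted. It rests on Cy5 intensities scaled between arrays, without swapped dyes. With the log ratio of the scanner software Ccne1 alone passed the test (2.92, adjusted p = 0.0215), and likewise with the authors' deposited value table (2.95, adjusted p = 0.0261). In both, the normal arrays entered with Cy5 not above background, so neither the size nor the pass rests on a measured normal level.

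The other cell cycle genes did not follow Ccne1. Of 32 measured genes 21 had a difference above 0 and the median was 0.13, with 1 member separated above (3.13%) and 1 below. Mki67, the Ki-67 proliferation antigen, had ratios of -0.18, -0.03 and -0.33 on the normal and 0.32, -0.87, -0.57, 0.15 and -0.06 on the dissected arrays, fully overlapping (difference -0.02 ± 0.50). Ccnd1, cyclin D1, differed by 0.25, Mcm5 by 0.21 and Pcna by 0.24, the last at -0.04 without normal array 1. The mitotic genes Ccnb2 and Kif20a had -0.78 and -0.89. The Kif20a probe was above background in Cy5 on 2 normal and 2 dissected arrays, and its other probe had -0.21. Top2a and Cdk1 did not pass the filter on dim probes and were not tested. The 95% interval of Mki67, wide on these arrays, does not show that proliferation was alike in both groups.

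Among the immediate early and AP-1 genes, switched on within minutes of a stimulus, 20 of 24 had a difference above 0 with a median of 0.09 (0.06 without normal array 1), and Ccn2, Maff and Egr1 were separated (12.5%). Ccn2, connective tissue growth factor, had -1.63, -0.01 and -0.17 on normal and 0.30, 0.15, 0.80, 0.74 and 1.46 on dissected arrays (difference 1.30, and 0.78 without normal array 1), with a similar 1.29 in the central area. Maff, a small MAF factor, had -0.09, -0.95 and -0.19 against 1.34, 0.60, 0.89, 0.28 and 0.10. Fos and Junb overlapped, with differences of 0.05 and 0.36, which were -0.04 and 0.05 without normal array 1. A second probe of Junb, above background in Cy5 on all peripheral arrays, had 0.65 ± 0.34 (SE) with that array included.

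Of the 12 genes below, Zfp580, Pcbd1, Rbm19, Shfl, Slc4a5, Gatb, Apln, Folr1, Ktn1, Slc16a11, Rec8 and Sdha, the differences were -1.29 to -0.66. Pcbd1, a cofactor recycling enzyme, had ratios of 0.37, -0.16 and 0.23 on the normal and -0.67, -0.86, -0.70, -0.77 and -1.17 on the dissected arrays, a difference of -0.98 ± 0.20 and of -0.87 without normal array 1. Zfp580, a zinc finger gene, had 0.19, 0.49 and 0.23 against -0.89, -1.06, -0.42, -0.37 and -0.51, and -1.01 without that array. Apln, the vascular peptide apelin, was closely grouped in dissected areas, at -0.48, -0.37, -0.48, -0.47 and -0.33, and stood at 1.41, 0.11 and 0.20 in normal ones, so that its difference of -0.99 was -0.58 without normal array 1. Slc4a5, a bicarbonate cotransporter, passed the test only when normal array 3 was left out (-1.37, adjusted p = 0.0454).

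Probes of 1 gene did not always behave alike. Sdha, a subunit of mitochondrial complex II, had a difference of -1.29 with its brightest probe and of 0.02 and 0.05 with the other 2. Lmo4 (-0.33), Slc4a5 (0.13), Folr1 (0.005) and Ktn1 (0.16) likewise had another probe of opposite sign. Those of Slc4a5 and Folr1 were above background in Cy5 on no normal array and on 2 and 1 dissected arrays, so they add little. A further probe of Lmo4 had 0.05, the sign of the first. The second probes of Apln (-0.59) and Rec8 (-0.36) also had the same sign as the first. The exon under each probe was not determined, and these 5 genes are uncertain.

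Most other lists lay close to all genes. Thyroid hormone synthesis had a median of 0.17 with 12 of 16 above 0 and none separated. Cytosolic ribosomal proteins (-0.02 over 48 genes), mitochondrial respiratory chain (0.03 over 48), proteasome subunits (0.12 over 30) and collagens with extracellular matrix (-0.01 over 30) had medians within 0.12 of 0. For ribosomal, respiratory chain and matrix genes the side of 0 changed with the scaling. Fzd1, a Wnt receptor, was the 1 separated member of the Wnt and Notch list, at -1.35, -0.27 and -0.77 on normal and 0.18, 0.36, 0.51, -0.08 and 0.12 on dissected arrays. Macrophage genes had a median of 0.22 with 19 of 20 above 0 and none separated. It was 0.45 without normal array 1, 0.13 without dissected array 4 and 0.28 in the central area.

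**Figure D4:**
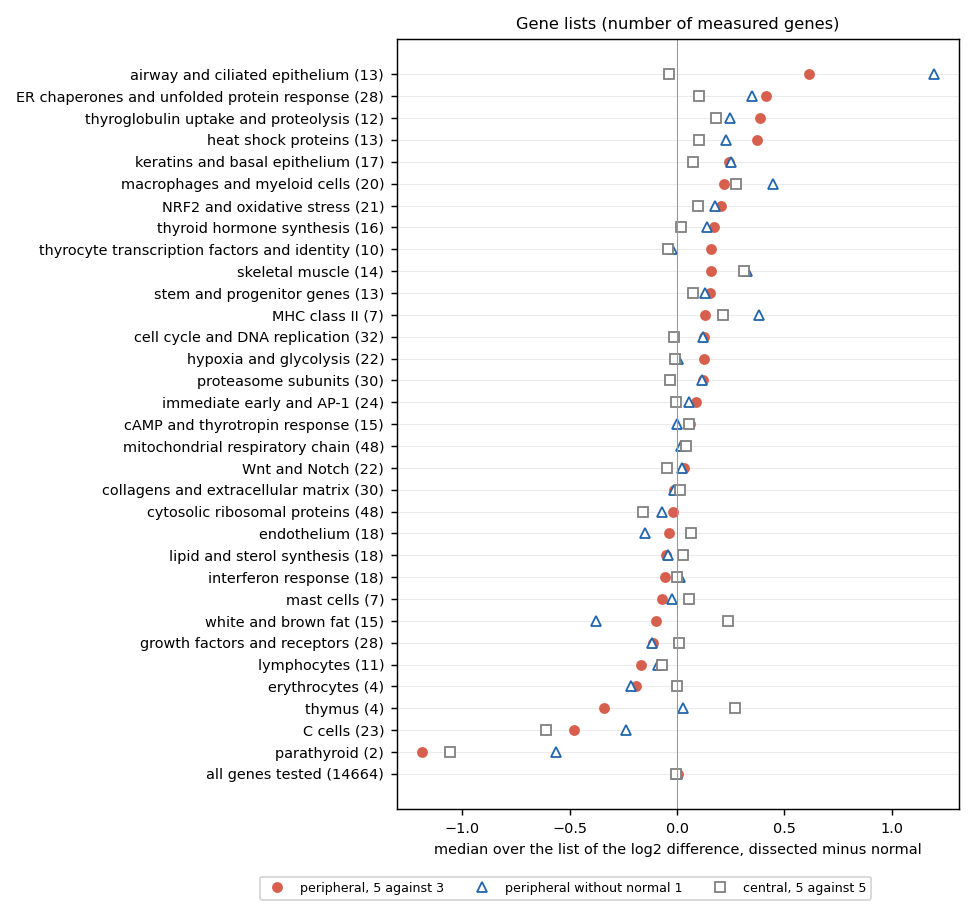
Median log2 difference, dissected minus normal, over the measured genes of each list (number in parentheses) for the peripheral areas (red circle), the peripheral areas without normal 1 (blue triangle) and the central areas (grey square). Endoplasmic reticulum genes sit at 0.41, 0.35 and 0.10, C cell genes at -0.48, -0.24 and -0.61, and airway genes move from 0.61 to 1.20 without normal 1.

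Genes of tissue next to the gland differed between single areas more than between groups. Airway and ciliated epithelium, which lies beside the lobe in the trachea, had a median difference of 0.61 with 12 of 13 above 0, but no member separated the groups. Scgb3a2, a secretoglobin of airway cells, had ratios of -0.53, -2.11 and -2.87 on the normal and -0.45, -2.24, -3.04, 2.68 and -2.28 on the dissected arrays. Reg3g, an antimicrobial lectin, reached 2.57 on dissected array 4 against -3.84 to -0.71 on the other dissected ones. Without dissected array 4 the list median was 0.01, and without normal array 1 it was 1.20, so this difference depended on single arrays.

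**Figure D5:**
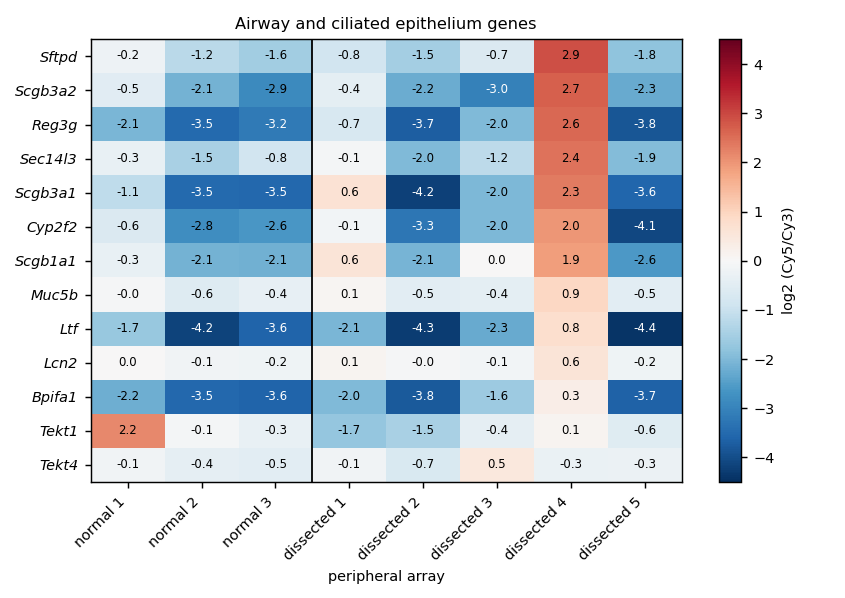
Log2 ratios of Cy5 over Cy3 for the 13 measured airway and ciliated epithelium genes on the 8 peripheral arrays, printed in each cell and coloured from blue (below 0) to red (above 0). Dissected 4 is above 0 for 12 of the 13 genes, with Sftpd at 2.89.

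Fat genes also differed between areas, with Ucp1, the brown fat uncoupling protein, at 0.37, 0.97 and 0.21 on normal and -2.12, 1.47, -1.52, -0.49 and 0.98 on dissected arrays. Pth, the parathyroid hormone gene, had -1.80 on normal array 1 and -4.67 and -4.27 on the other normal arrays, against -5.17 to -3.42 on the dissected ones, and was above background in Cy5 on 3 of the 8 arrays. Its difference of -0.98 was -0.10 without normal array 1. Gcm2 and Casr, also used here as parathyroid markers, were above background on no array. The part of these neighbouring tissues in the results above was not tested.

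The central area was compared for reference, with 5 dissected and 5 normal arrays of its own. It too had no gene at an adjusted p under 0.05 (0 called, 0%, smallest 0.114), 768 at an unadjusted p under 0.05 (5.24%), and 63 genes separated above (0.430%) and 84 below (0.573%). Across the 14664 genes the peripheral and central differences, which share no array, correlated at 0.07, and at 0.19 without normal array 1. Genes are not independent replicates. The test of the difference between the areas also called no gene (0%, smallest adjusted p 0.790, 853 or 5.82% unadjusted), so no gene can be called particular to the periphery.

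The 3 genes with the smallest p of that test in each direction were Ly6g6e, Dusp22 and Cul5, higher in the periphery, and Plekhh3, Ola1 and Apln, lower. Ly6g6e, a membrane protein of the Ly6 family, had ratios of -0.55, -0.49 and -0.52 on the normal and 0.12, -0.05, 0.57, -0.02 and 0.07 on the dissected peripheral arrays. Its difference was 0.66 in the periphery and -0.66 in the centre. Dusp22, a phosphatase, had 0.66 and -0.27, and Apln -0.99 and 0.14. Cul5, a ubiquitin ligase scaffold, had 0.59 and -0.54 with its brightest probe, but the other 2 had 0.26 and -0.31 in the periphery, so it is uncertain too. C cell genes had medians of -0.48 in the periphery (-0.24 without normal array 1) and -0.61 in the centre. In the centre their mean ratio was 0.43 to 1.09 on the normal arrays, -0.08 and -1.08 on dissected central arrays 1 and 2, and 0.81, 0.58 and 0.57 on the other 3. Those 2 arrays were among the 4 of the series with the weakest Cy5.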

How the data were processed

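The array titles put 5 areas in the dissected and 3 in the normal peripheral group. The arrays, gene lists and rules were chosen with earlier results of these data known. The deposited scanner files hold spot intensity and background intensity per channel from Agilent Feature Extraction 9.5.1.1, per the file headers (8.5.1.1 per the submitters' processing notes), and a log10 ratio of processed Cy5 over Cy3. The authors also deposited a table of linear ratios with unstated processing. Its columns, with medians of 0.871 to 1.06, followed the scanner ratio after centring each probe (correlation 0.967 to 0.997). That match gave its direction (Cy5 over Cy3) and linear scale. The exact centring and earlier steps stay unknown, and the table served only as an alternative.

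Mean intensities of 45018 spots per array were corrected with normexp (offset 50, fitted on all spots) and normalized by loess, with 1639 control spots at weight 0. Non-uniform spots (at most 108 per array) were left out, so a group mean can rest on fewer arrays, as for Hmox1 on dissected 4. Probes with Cy5 well above background on at least 3 of 18 arrays were kept (19082 of 41174 gene probes), and the brightest stood for its gene. Of the 41174 probes 22951 were named by accession, 6659 by symbol and 3109 by older symbol through RefSeq (GRCm38.p6), and 8455 kept the file's name. Probe positions in the files are on mm7, a build not used here for annotation. Group means were fitted with limma 3.58.1 in R 4.3.3, with tests two-sided, and the fit was tested on simulated data. Named genes were the 12 of smallest p in each direction among genes above background on 4 or more dissected or all 3 normal arrays, fixed thyroid, C cell and stress genes, the 2 measured members of smallest p of each of 32 lists, and 3 genes in each direction for the difference of the areas. Separated members and other members are described from the lists after their values were seen. Some genes of the fixed lists are not reported here by name. Slides and scan days were used as blocks. The number of arrays limits the precision.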

Additional observations from a re-analysis of the deposited data

Results flagged for a closer look

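In 133 groups of 5 dissected values, of named genes or list means, 11 had 1 area far from the other 4, and chance alone would give about 1 in 20. Duox2, an oxidase of hormone synthesis, stood at 0.53 on dissected array 5 against at most -0.21 on the others. The same array was highest for Egf, a growth factor (0.19, next -0.21), Ciita, the MHC class II regulator (0.91, next 0.19), and the mean of endothelial genes (0.24, next -0.22). Dissected array 1 was highest for Foxa2, a forkhead factor of C cells (-2.18, next -2.94), and Pth (-3.42, next -4.69). Dissected array 2 was highest for Pck1, an enzyme of gluconeogenesis and fat (1.80, next -0.999). Dissected array 3 was highest for Ly6g6e (0.57, next 0.12) and lowest for the mean of stem and progenitor genes (-0.43, next -0.16). Dissected array 4 was highest for Alas2, of haem synthesis in red cells (0.51, next -0.22), and for the mean of lymphocyte genes (0.11, next -0.51).

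Ola1, an ATPase, had groups that did not overlap in either area, in opposite directions. Dmxl1 did so too, with differences of 0.21 in the periphery and -0.34 in the centre. Separated genes made up 2.15% above and 1.95% below in the periphery, and 0.430% and 0.573% in the centre. With such shares of 14664 genes, chance alone would give some genes of this kind. The peripheral ratios of Ola1 were 0.44, 0.33 and 0.36 on normal and 0.15, -0.11, 0.13, 0.02 and -0.16 on dissected arrays. The difference was -0.37 in the periphery and 0.25 in the centre, and the difference between the areas, -0.62, did not pass its limma test (adjusted p = 0.790).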

How the results depend on the processing

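No gene passed the test in the peripheral comparison, and most of the 28 alternatives left that count at 0. The scanner log ratio and the authors' table each called 1 gene, Ccne1, which is also the 1 gene called among the lists. Its probe was above background in Cy5 on no normal peripheral array. Median centring, which moved the median of all genes to 0.23 (0.11 in the authors' table), called 5: Agfg1, Anxa1, Apool, Fhl2 and Lgals3. It called 4 for the difference of the areas. Array weights called 2 in the centre, Jdp2 and Nupr1l. Leaving out 1 array gave 0 to 1 calls, the 1 being Slc4a5 without normal array 3. Genes without overlap, above and below, numbered 975 (6.65%) and 57 (0.389%) with median centring. With no filter they numbered 741 (2.68%) and 710 (2.57%) of 27670 genes. Fewer arrays leave more genes without overlap by number alone. Scan day 1, with only normal array 3 and dissected arrays 3 and 4, gave 4659 (31.8%) and 5335 (36.4%). Day 2, with normal 1 and 2 and dissected 1, 2 and 5, gave 1744 (11.9%) and 1487 (10.1%). Without the 4 arrays of weakest Cy5 there were 843 (5.75%) and 925 (6.31%). Without normal 1 and dissected 4 (chosen after seeing the data) there were 1041 (7.1%) and 1027 (7%). Leaving out 1 array gave 451 to 867 (3.08% to 5.91%) and 397 to 861 (2.71% to 5.87%). Of 2704 gene values, 2632 kept direction and side of the threshold, 67 reversed and 5 passed it. The cause was not tested. Reversed values were as follows. Cy5 alone gave Cdh16 0.044 and Mki67 0.10. Array weights gave Nupr1l -0.023 and Jdp2 -0.031. The authors' table gave Mki67 0.12, and the scanner ratio Mki67 0.093. Median centring gave Alas2 0.11, Cdh16 0.20, Ola1 0.24 and Mki67 0.27. Scale normalization gave Hmgcs1 -0.026, Tg -1.24, Foxa2 0.053, Mki67 0.12, Pck1 0.13, Scg3 0.51, Pth 0.62 and Cxcl13 0.82. Scan day 1 gave Jdp2 -0.016, Cul5 -0.066, Ndrg1 -0.074, Cdh1 -0.086, Junb -0.17, Duox2 -0.24, Kit -0.24, Nupr1l -0.27, Dsp -0.38, Nkx2-1 -0.47, Fos -0.51, Mfsd2a -0.67, Dio1 -0.75, Mki67 0.12, Tekt1 0.17 and Alas2 0.24, and day 2 Slc4a1 -0.043 and Scgb1a1 -0.11. Slide as a block gave Tg -0.0041 and Duox2 -0.013. Leaving out normal 1 and dissected 4 gave Nkx2-1 -0.02, Nupr1l -0.058, Fos -0.092 and Jdp2 -0.10, and leaving out the 4 weakest Nkx2-1 -0.13, Nupr1l -0.13 and Fos -0.13. With 1 array left out the ranges were -0.16 to 0.53 for Tg, -0.011 to 0.20 for Tshr, -0.15 to 0.084 for Duox2, -0.14 to 0.40 for Nkx2-1, -0.15 to 0.15 for Mki67, -0.12 to 0.31 for Fos, -0.052 to 0.13 for Jdp2, -0.11 to 0.16 for Nupr1l and -0.023 to 0.24 for Kit.

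Samples of the same number showed little common deviation (correlations 0.010, 0.130 and -0.024), and only number 2 correlated best with its own number. The numbers were not taken to pair the samples, but a check on so few numbers cannot exclude pairing. The replicate block called no gene and gave Duox2 -0.008, Jdp2 -0.0088 and Mki67 0.049. Signal over background limited what could be tested, since 19082 of 41174 gene probes passed the filter.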
